A study of Mus musculus with 14 samples.

Results

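A set of 10 genes of the secretory stress and unfolded protein response, *Ern2*, *Xbp1*, *Hspa5*, *Dnajb9*, *Dnajc3*, *Pdia4*, *Creld2*, *Atf4*, *Ddit3* and *Trib3*, were followed across the samples of a mouse intestine array series. The genes were chosen by name for their place in this response, and they are 10 of 36161 gene names on the array. The study asked how gene expression differs among normal intestine, early tumors and a carcinoma line. RNA of 14 samples was hybridized to 1 one-color array each. Small intestine (3 arrays) and colon (3 arrays) came from C57BL/6J mice, untreated as far as the labels say. Adenomas (3 arrays) and the non-tumor tissue adjacent to them (2 arrays) came from *Apc* Min/+ mice on the same background, whose germline carries 1 mutant copy of the tumor suppressor *Apc*. All of these pieces are listed under 1 mouse, so these arrays differ as pieces of 1 animal do, not as animals do. CT26 (3 arrays) is a colon carcinoma cell line of BALB/c origin grown in culture, so strain and culture move together with the tumor label. In whole tissue, fewer cells of a type and less RNA per cell cannot be told apart.

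The endoplasmic reticulum folds proteins bound for secretion, and it answers an overload through the unfolded protein response. The sensor IRE1 splices *Xbp1* mRNA into a form that encodes an active transcription factor, and *Ern2* encodes IRE1beta, the copy restricted to epithelia that secrete mucus. The kinase PERK and its relatives phosphorylate eIF2alpha, which slows translation while letting *Atf4* mRNA be translated. ATF4 in turn induces *Ddit3* (CHOP) and *Trib3*, a pseudokinase that feeds back on both. *Hspa5* encodes BiP, the main chaperone of the compartment, *Dnajb9* and *Dnajc3* encode co-chaperones of BiP, *Pdia4* a disulfide isomerase, and *Creld2* a protein with disulfide isomerase activity. In the gut, goblet and Paneth cells carry the heaviest secretory load.

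Several of these genes hold known response elements close to their start, and the sequences are shown because some genes that share an element are set against their levels further on. Promoters were taken from RefSeq (GRCm38.p6), 250 bases before to 50 bases after the start, and 9 of the 10 genes were in that table, *Ern2* being the exception. The ER stress response element (ERSE), read on both strands as CCAAT and CCACG with 9 bases of any kind between them, was found in *Hspa5*, *Dnajc3* and *Creld2*. It occurs in 39 of 32851 promoters (0.119%). Of 52 other genes of the pathway with a promoter there, 6 hold it: *Calr*, *Canx*, *Derl3*, *Hsp90b1*, *Pdia6* and *Syvn1*. The sites of the 3 members are printed in the direction of the element with its fixed letters in capitals. The base of the element farthest upstream lies 65 bases before the start in *Hspa5* and 105 in *Dnajc3*. In *Creld2* it lies 126 bases before the start, and the element runs on the opposite strand.
*Hspa5*, chr2:34772015-34772053 (+): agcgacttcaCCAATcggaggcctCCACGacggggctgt
*Dnajc3*, chr14:118937817-118937855 (+): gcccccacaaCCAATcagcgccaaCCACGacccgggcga
*Creld2*, chr15:88819510-88819548 (-): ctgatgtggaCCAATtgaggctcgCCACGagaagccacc
The 250 bases before the start of *Hspa5* (chr2:34771840-34772089, + strand) show where the element, in capitals, sits in the promoter of the main chaperone gene.
*Hspa5* promoter: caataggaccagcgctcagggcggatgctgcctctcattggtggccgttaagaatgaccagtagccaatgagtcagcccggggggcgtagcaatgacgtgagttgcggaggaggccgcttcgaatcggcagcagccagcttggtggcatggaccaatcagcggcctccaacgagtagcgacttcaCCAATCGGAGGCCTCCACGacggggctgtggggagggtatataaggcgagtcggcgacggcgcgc

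The core of the C/EBP-ATF response element (CARE), read as TGATGNAA on both strands, was found in *Trib3* alone among the 9 genes and in 1304 of all promoters (3.97%). It was found in 7 of 52 other genes of the pathway with a promoter there, among them *Asns*, *Chac1*, *Atf3* and *Nupr1*, all known targets of ATF4. The core lies 14 bases after the start in *Trib3*, and 23, 193, 110 and 110 bases before it in *Asns*, *Chac1*, *Atf3* and *Nupr1*.
*Trib3*, chr2:152344029-152344056 (+): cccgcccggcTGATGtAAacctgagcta
*Asns*, chr6:7693215-7693242 (-): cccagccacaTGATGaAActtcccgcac
*Chac1*, chr2:119351039-119351066 (-): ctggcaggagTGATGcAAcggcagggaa
*Atf3*, chr1:191183426-191183453 (+): gcggacttggTGATGcAAgtgcgagaag
*Nupr1*, chr7:126625563-126625590 (+): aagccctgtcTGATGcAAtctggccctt
A second form of the ERSE (ATTGG, any base, CCACG, on both strands) and the core of the XBP1 and ATF6 element (TGACGTGG, likewise on both strands) were in none of the 9 promoters, and in 0.0365% and 0.676% of all promoters. Of the 52 other pathway genes, 2 held the former and 3 the latter. A match says only that these letters lie in the window.

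Levels are given as the log2 of the background-subtracted signal minus the 75th percentile of the array, called the scaled log2 signal, on which 0 is that percentile. The probe with the highest mean over all arrays stood for a gene, and a level is compared only with the same probe on other arrays. *Ern2* and *Ddit3* were read from probes that cross a splice junction, printed in lower case because they show which stretch of each transcript was measured (mm9).
*Ern2*, chr7:129316864-129317006 (-): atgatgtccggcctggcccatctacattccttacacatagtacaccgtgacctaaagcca
*Ddit3*, chr10:126732518-126732821 (+): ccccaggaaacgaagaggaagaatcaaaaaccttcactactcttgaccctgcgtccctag
The *Xbp1* probe lies on 1 uninterrupted stretch of the genome and gives total *Xbp1* RNA, so the spliced form was not measured apart. A gene was called where its log2 fold change in limma reached 1.2 in either direction with an adjusted p no higher than 0.01, the adjustment covering all probes tested.

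The share of probes well above background ran from 46.8% (colon replicate 3) to 58.2%, and the 10 genes were well above it on every array except *Ern2* on CT26 replicate 1. Colon replicate 3 stood apart: over all probes its correlation with the other colon arrays was 0.934 and 0.938, against 0.985 between those arrays. Its median for 10 markers of small intestine enterocytes was 5.80 (-2.66 and -2.26 on the other colon arrays), and its median for 6 colonocyte markers was -0.33 (6.81 and 6.19). The study's sample list also places 1 colon sample under an *Apc* Min/+ mouse, whereas the labels give C57BL/6J for all. Members' comparisons with colon that the text turns on are therefore given with and without this array. CT26 lacked most of an epithelial marker list, with 3 to 4 of 8 genes well above background, and *Epcam*, *Cdh1*, *Krt19* and *Vil1* on no array, while *Krt18* and *Krt20* were on all. The median log2 fold change over all gene names was -0.15 between adenomas and small intestine (-0.03 after quantile normalization), 0.32 between CT26 and colon and 0.14 between CT26 and small intestine, and values are to be read against these shifts.

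In adenomas against small intestine, *Ddit3* and *Dnajb9* were underexpressed, 2 of 10 genes, where 11.1% of all genes tested were called lower and 22.4% in either direction. None was overexpressed. Against the adjacent tissue only *Ern2* was called, as overexpressed, beside 2.4% of all genes called higher and 4.18% in either direction. CT26 against colon showed 3 genes overexpressed (*Atf4*, *Ddit3* and *Trib3*) and 1 underexpressed (*Ern2*), beside 21% and 16.2% of all genes, or 37.2% in either direction. Against small intestine the same 3 genes were overexpressed in CT26, and *Ern2* and *Dnajc3* were underexpressed, beside 26.3% and 22.9% of all genes, or 49.1% in either direction. No member was called by limma between adjacent tissue and small intestine (0.00924% of all genes called), between colon and small intestine (0.00969%) or between adenomas and colon (3.7%). An unadjusted p below 0.05 was reached there by 5, 3 and 2 of 10 members, beside 30.6%, 23.9% and 29.2% of all genes. At an adjusted p of 0.05 with no fold limit, 7 members passed in adenomas against small intestine (52.8% of all genes), 2 against adjacent tissue (20.2%), 4 in CT26 against colon (53.1%) and 7 against small intestine (67.2%), and none elsewhere (1.62%, 0.538% and 12.7% of all genes in the same order as above). Without colon replicate 3, the same 4 members were called between CT26 and colon, beside 39.5% of all genes. The comparisons share arrays and are not independent of each other.

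**Figure D1:**
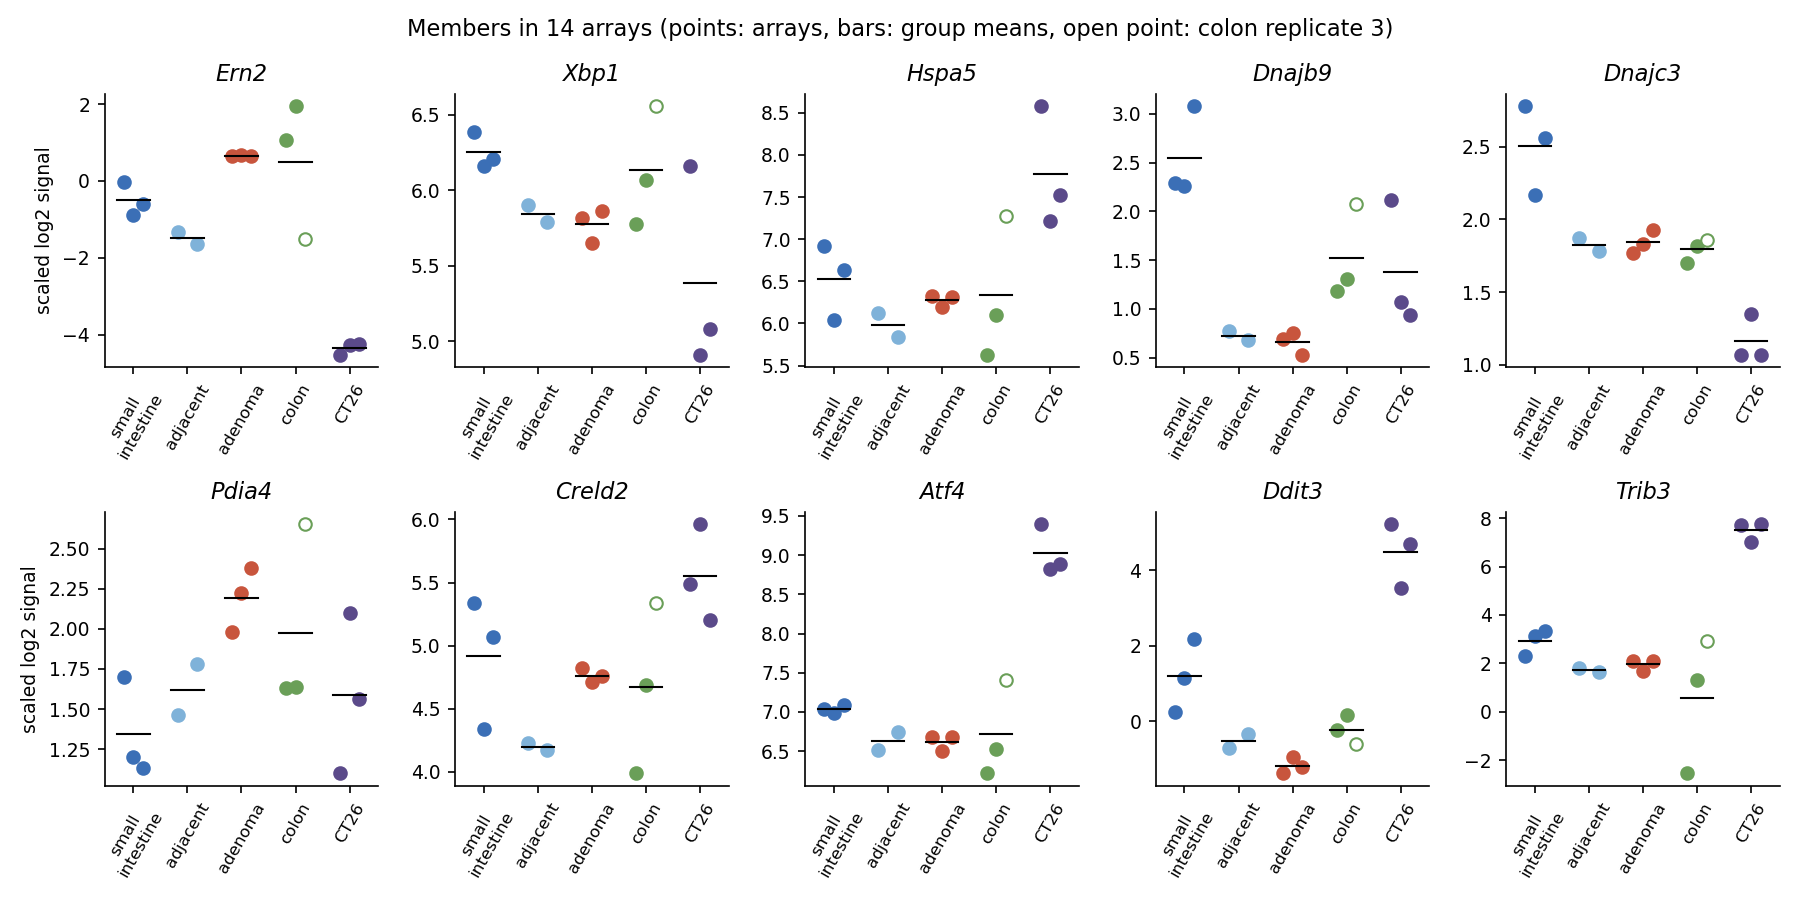
Scaled log2 signal (vertical axis, its range set per gene) of the 10 genes on 14 arrays in 5 groups; points are arrays, bars group means, and the open point is colon replicate 3. *Atf4*, *Ddit3* and *Trib3* were higher on all 3 CT26 arrays than on every tissue array, whereas *Ern2* was lower on them than on every tissue array.

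*Ern2*, the sensor of mucus-secreting epithelium, had the narrowest spread in adenomas. Its scaled log2 signal was 0.64, 0.67 and 0.66 on the 3 adenoma arrays and -1.34 and -1.63 on the 2 adjacent arrays. On small intestine it was -0.03, -0.89 and -0.59, so that every adenoma array lay above every array of both other groups of small intestinal tissue. The difference from the adjacent tissue was 2.14 (SE 0.159), or 4.41-fold, with an adjusted p of 0.003. It was 1.99 on slide 1 and 2.29 on slide 2, and with all groups in 1 fit the adjusted p was 0.129, the highest over the alternatives that keep all arrays (0.000854 to 0.129). Leaving out any 1 adenoma array also ended the call, with adjusted p between 0.0169 and 0.0334, while the difference stayed at 2.14 to 2.15. Against small intestine, the difference was 1.16 (SE 0.237, adjusted p 0.00671), just under the fold threshold and not called. It reached 1.40 (adjusted p 0.0011) without small intestine replicate 1, whose enterocyte marker median was the lowest of the 3 (5.99, against 8.64 and 8.81).

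On colon, *Ern2* stood at 1.06, 1.95 and -1.5, the last value being replicate 3. The other colon arrays were thus the highest of all, and replicate 3 lay near the adjacent tissue. Colon minus small intestine was 1.0 (SE 0.85, adjusted p 0.503) with the 3 colon arrays and 2.01 (SE 0.385, adjusted p 0.017) without replicate 3, neither of them called. Adenoma minus colon was 0.15 (SE 0.844, adjusted p 0.925), and without replicate 3 it was -0.85 (adjusted p 0.0715). In CT26 the signal was -4.52, -4.28 and -4.23, far below every tissue array. CT26 minus colon was -4.84 (SE 0.797, adjusted p 0.00174), and -5.85 (SE 0.349, adjusted p 1.35e-05) without colon replicate 3. It was -6.32 on slide 1 and -4.06 on slide 2, and with the normalized table it was -3.19 with an adjusted p of 0.0128, which is no call. Over all alternatives of that kind the adjusted p ran from 2.44e-05 to 0.0128. Without CT26 replicate 1 it was 0.0118, and without colon replicate 2 the difference was -4.12. CT26 minus small intestine was -3.84 (SE 0.29, adjusted p 8.51e-06).

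Among 16331 names compared over the 14 arrays, the gene whose centered profile lay closest to that of *Ern2* was *Creb3l4*, a membrane-bound transcription factor of the CREB3 family. The root mean square difference was 0.446, beside 0.644 for the next name (*Slc25a35*) and up to 0.674 for the fifth (*1700112E06Rik*, *Pllp* and *LOC552912* completing the list). The profile of *Ern2* itself had a root mean square of 2.01. *Creb3l4* read 3.23, 3.37 and 3.43 on adenomas, 0.99 and 0.69 on adjacent tissue, 2.22, 1.03 and 0.95 on small intestine, 2.97, 3.71 and 1.17 on colon, and -1.36, -2.40 and -2.24 on CT26. Like *Ern2* it was low on colon replicate 3, and all adenoma arrays exceeded all adjacent and small intestine arrays. *Creb3l4* was picked for its likeness to *Ern2* over these same arrays, so the shared pattern is no separate observation. It was overexpressed in adenomas by 2.5 (SE 0.17, adjusted p 0.00249) against adjacent tissue and by 1.95 (SE 0.343, adjusted p 0.00373) against small intestine. *Agr2*, the disulfide isomerase needed for mucin folding, was overexpressed in adenomas against adjacent tissue by 1.78 (SE 0.236, adjusted p 0.00922). Of 8 goblet cell markers, *Spdef*, a transcription factor of secretory cells, was overexpressed in adenomas against adjacent tissue (1.67, SE 0.182, adjusted p 0.00608). *Retnlb* (3.45, adjusted p 0.0301) and *Spink4* (0.63, adjusted p 0.139) were higher on every adenoma array without being called, and the other 5 overlapped. In adenomas against small intestine, 1 of the 8 markers was called higher and 4 lower, beside 11.3% and 11.1% of all genes. The median of the 8 markers was 6.69 to 6.97 on adenomas, 6.50 to 7.58 on adjacent tissue, 8.31 to 8.68 on small intestine and 7.79 to 8.28 on colon, with all 8 markers well above background. In CT26 it was -5.96 to -5.66, with 1 to 2 of 8 above background. A list of 7 gastric gland genes had a median of 2.58 to 2.92 on adenomas, all 7 well above background, and of at most -2.63 on every other array. The part of these cell types in the *Ern2* values was not tested.

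**Figure D2:**
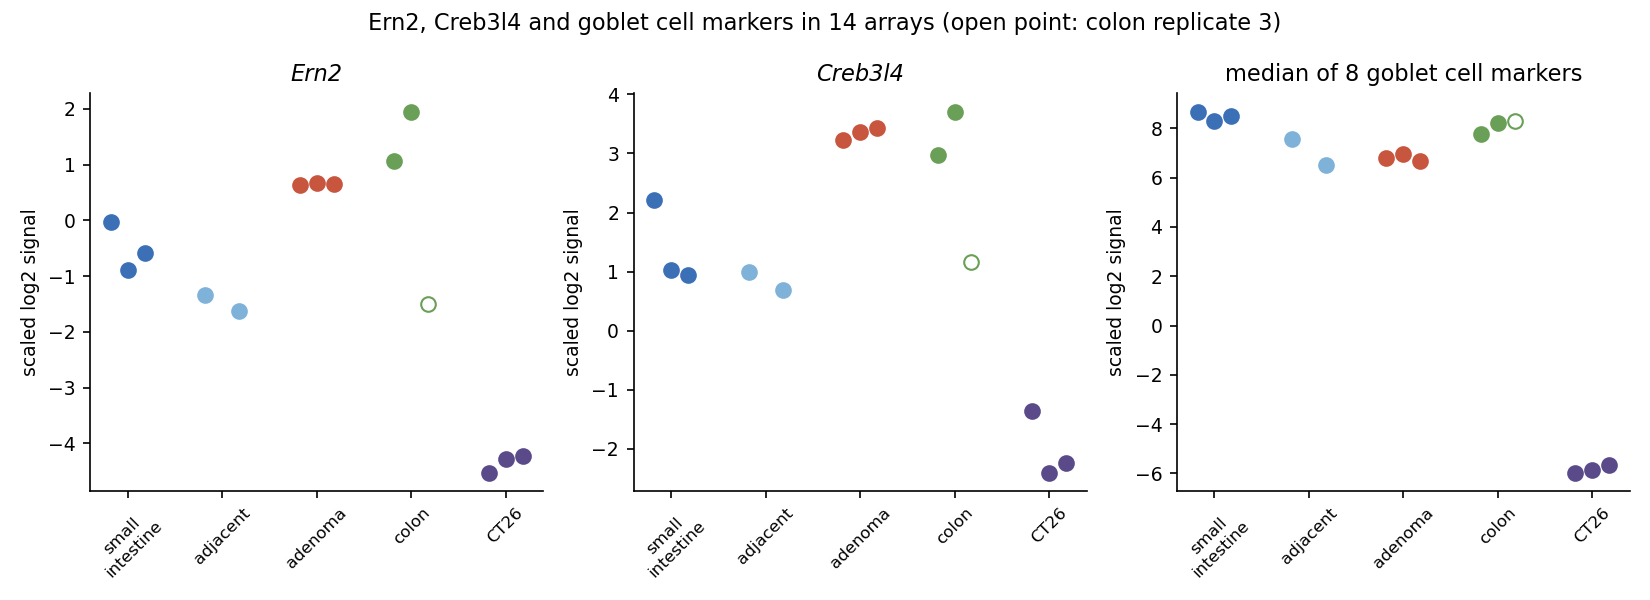
Scaled log2 signal of *Ern2*, of *Creb3l4* and of the median of 8 goblet cell markers (vertical axes, separate scales) on each array of the 5 groups; the open point is colon replicate 3. *Creb3l4* was picked for its likeness to *Ern2* over these same arrays. Both genes were higher on the 3 adenoma arrays than on the adjacent and small intestine arrays. The goblet cell median of the adenomas (6.69 to 6.97) lay within the range of the adjacent tissue (6.50 to 7.58).

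*Xbp1*, the transcription factor downstream of IRE1, differed least with *Pdia4* among the 10 genes, its group means spanning 0.87. It read 6.39, 6.16 and 6.21 on small intestine, 5.90 and 5.79 on adjacent tissue, 5.82, 5.65 and 5.86 on adenomas, 5.78, 6.07 and 6.56 on colon, and 6.16, 4.91 and 5.08 on CT26. All adenoma and adjacent arrays lay below all small intestine arrays. Adenoma minus small intestine was -0.47 (SE 0.158, adjusted p 0.0407) and CT26 minus small intestine -0.87 (SE 0.355, adjusted p 0.0577), neither called. CT26 replicate 1 stood above the other CT26 arrays, and without it the latter difference was -1.26 with an adjusted p of 0.00279, past both thresholds.

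*Dnajb9*, an XBP1 target whose product restrains IRE1 through BiP, was higher on the small intestine arrays than on all others by the probe that stood for it. The signal was 2.29, 2.26 and 3.08 on small intestine, 0.77 and 0.68 on adjacent tissue, and 0.69, 0.75 and 0.53 on adenomas. It was 1.18, 1.31 and 2.07 on colon and 2.12, 1.07 and 0.94 on CT26. By this probe the adenoma and adjacent arrays were the lowest of all, with no array of the other groups among them. In adenomas the gene was underexpressed by 1.89 on the log2 scale (log2 fold change -1.89, SE 0.253, adjusted p 0.00124), or 3.70-fold. Within slides the difference was -2.08 and -1.51. Its second probe, which binds another stretch of the transcript, gave -1.60 (SE 0.266, adjusted p 0.00301). The order of arrays did not hold on that probe. CT26 replicates 2 and 3 (-2.4 and -2.55) lay among the adenoma and adjacent arrays. Colon replicate 3 (-0.84) lay above small intestine replicates 1 and 2 (-1.23 and -1.1). Adjacent minus small intestine was as large, at -1.82, but with 2 adjacent arrays the adjusted p was 0.0515 and it was not called. Between adenomas and adjacent tissue the difference was -0.07 (SE 0.153, adjusted p 0.76). CT26 minus small intestine was -1.17 (SE 0.391, adjusted p 0.0277), not called, but without CT26 replicate 1 it was -1.54 (adjusted p 0.00531) and passed both thresholds.

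*Dnajc3*, the other co-chaperone, which also inhibits PERK, read 2.78, 2.17 and 2.56 on small intestine. It read 1.87 and 1.78 on adjacent tissue, 1.77, 1.83 and 1.93 on adenomas, 1.70, 1.82 and 1.86 on colon, and 1.07, 1.35 and 1.07 on CT26. The arrays fell into 3 levels without overlap, with small intestine highest, the remaining tissues between and CT26 lowest. CT26 was lower than small intestine by a called difference (-1.34, SE 0.262, adjusted p 0.00215), which was -1.60 on slide 1 and -0.82 on slide 2. The call was lost without CT26 replicate 3 (-1.29, adjusted p 0.0111) and with normexp background correction, where the difference was -1.17. The differences of adenomas (-0.66, adjusted p 0.0281), adjacent tissue (-0.68, adjusted p 0.142) and colon (-0.71, adjusted p 0.162) from small intestine were not called, nor was that of CT26 from colon (-0.63, adjusted p 0.0803, and -0.60, adjusted p 0.105, without colon replicate 3).

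*Hspa5*, the chaperone at the head of the response, was not called in any comparison. Its signal was 6.92, 6.04 and 6.64 on small intestine, 6.13 and 5.84 on adjacent tissue, 6.33, 6.20 and 6.31 on adenomas, 5.63, 6.10 and 7.27 on colon, and 8.58, 7.21 and 7.52 on CT26. Every CT26 array was above every tissue array but colon replicate 3, which reached the level of CT26. CT26 minus small intestine was 1.23 (SE 0.408, adjusted p 0.0264). CT26 minus colon was 1.43 (SE 0.531, adjusted p 0.0538), and 1.90 (SE 0.453, adjusted p 0.01 after rounding, just over the threshold) without colon replicate 3. Adenomas differed from small intestine by -0.26 (adjusted p 0.402) and from adjacent tissue by 0.29 (adjusted p 0.247). The names with the profile closest to *Hspa5* over the 14 arrays were *Faf2*, *Scyl2*, *Nmt1*, *Lman2* and *Med8*, at root mean square differences of 0.224 to 0.252, where *Hspa5* itself had 0.77.

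*Creld2* and *Pdia4* were also without a call in all 7 comparisons. *Creld2* read 5.34, 4.34 and 5.07 on small intestine, 4.23 and 4.17 on adjacent tissue, 4.82, 4.71 and 4.76 on adenomas, 3.99, 4.69 and 5.34 on colon, and 5.49, 5.96 and 5.20 on CT26. The adenoma arrays lay above both adjacent arrays (0.56, SE 0.143, adjusted p 0.0452), both adjacent arrays lay below small intestine, and the groups of the other 5 comparisons overlapped. *Pdia4* read 1.70, 1.2 and 1.13 on small intestine, 1.46 and 1.78 on adjacent tissue and 1.98, 2.22 and 2.38 on adenomas. On colon it was 1.63, 1.64 and 2.65 and on CT26 1.10, 2.10 and 1.56. The adenoma arrays were above all small intestine and adjacent arrays, by 0.85 (SE 0.214, adjusted p 0.0152) and 0.57 (adjusted p 0.0926) on average. *Pdia4* was the only one of the 5 chaperones and folding enzymes with adenomas as its highest group. Of *Hspa5*, *Dnajc3* and *Creld2*, which share the ERSE, only *Dnajc3* was called in CT26 against small intestine. Their log2 fold changes there were 1.23, -1.34 and 0.64, and the difference between these genes was not tested.

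*Atf4*, *Ddit3* and *Trib3* set CT26 apart from every tissue. *Atf4* read 9.39, 8.82 and 8.88 on CT26. It read 7.04, 6.99 and 7.09 on small intestine, 6.51 and 6.75 on adjacent tissue, 6.68, 6.50 and 6.68 on adenomas, and 6.22, 6.53 and 7.41 on colon. The lowest CT26 array exceeded the highest tissue array, which was colon replicate 3. Against colon the log2 fold change was 2.31 (SE 0.385, adjusted p 0.00186), or 4.95-fold, and 2.65 (SE 0.313, adjusted p 0.000395) without colon replicate 3. Within slides it was 2.61 and 2.0. A second *Atf4* probe gave 3.65 (SE 0.333, adjusted p 9.4e-05). Against small intestine *Atf4* was overexpressed by 1.99 (SE 0.255, adjusted p 0.000195). Its differences among the tissues were not called. They were at most 0.42 in size with all arrays, and colon minus small intestine was -0.66 (adjusted p 0.0799) without colon replicate 3. The second probe gave -0.65 to -0.93 for adenomas, adjacent tissue and colon against small intestine, also without a call.

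*Ddit3*, the transcription factor CHOP, had both its highest and its lowest group among the tumor samples. It read 5.21, 3.53 and 4.68 on CT26 and -1.37, -0.95 and -1.21 on adenomas. On small intestine it was 0.24, 1.15 and 2.19, on adjacent tissue -0.70 and -0.33, and on colon -0.22, 0.16 and -0.59. CT26 minus colon was 4.69 (SE 0.468, adjusted p 0.000148), or 25.8-fold, and 4.50 (SE 0.501, adjusted p 0.000294) without colon replicate 3. CT26 minus small intestine was 3.28 (SE 0.57, adjusted p 0.00111). Adenomas lay below all small intestine arrays, with a log2 fold change of -2.37 (SE 0.459, adjusted p 0.00544), or 5.15-fold lower, and -2.5 and -2.09 within slides. This call was less firm. The adjusted p moved past the threshold to 0.0183 without small intestine replicate 2 and to between 0.0195 and 0.0234 without any 1 adenoma array. Over the alternatives that keep all arrays it ran from 0.00267 to 0.0128, the call ending with every probe tested and with slide as a block. Adenoma minus adjacent was -0.66 (SE 0.205, adjusted p 0.0732) and adjacent minus small intestine -1.71 (SE 0.562, adjusted p 0.115), with no overlap of arrays in either. The names closest to *Ddit3* in profile were *Vmn1r132*, *Pax3*, *Xaf1*, *Vmn1r178* and *Trim30a*, at root mean square differences of 0.56 to 0.664, where *Ddit3* had 2.12.

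*Trib3*, the feedback pseudokinase, showed the widest span of the 10 genes, 6.93 between CT26 and colon. It read 7.72, 7.02 and 7.74 on CT26, 2.31, 3.12 and 3.35 on small intestine, 1.82 and 1.64 on adjacent tissue, and 2.10, 1.69 and 2.11 on adenomas. The colon arrays scattered from -2.54 through 1.32 to 2.92 (replicate 3), and their SD of 2.81 was the largest of any of the 10 genes in any group. CT26 minus colon was therefore the less precise difference, 6.93 (SE 1.22, adjusted p 0.00238), 8.10 (SE 0.994, adjusted p 0.000472) without colon replicate 3 and 5.37 (adjusted p 0.000386) without colon replicate 1. It was 6.41 on slide 1 and 6.82 on slide 2, and it lost its call without CT26 replicate 1 (adjusted p 0.0153) or replicate 3 (adjusted p 0.0111). CT26 minus small intestine was 4.57 (SE 0.354, adjusted p 1e-05), or 23.7-fold. Adenomas were lower than all small intestine arrays, by -0.96 (SE 0.296, adjusted p 0.0306), which was not called with all arrays. Without small intestine replicate 1 it was -1.27 (adjusted p 0.00311) and passed both thresholds.

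**Figure D3:**
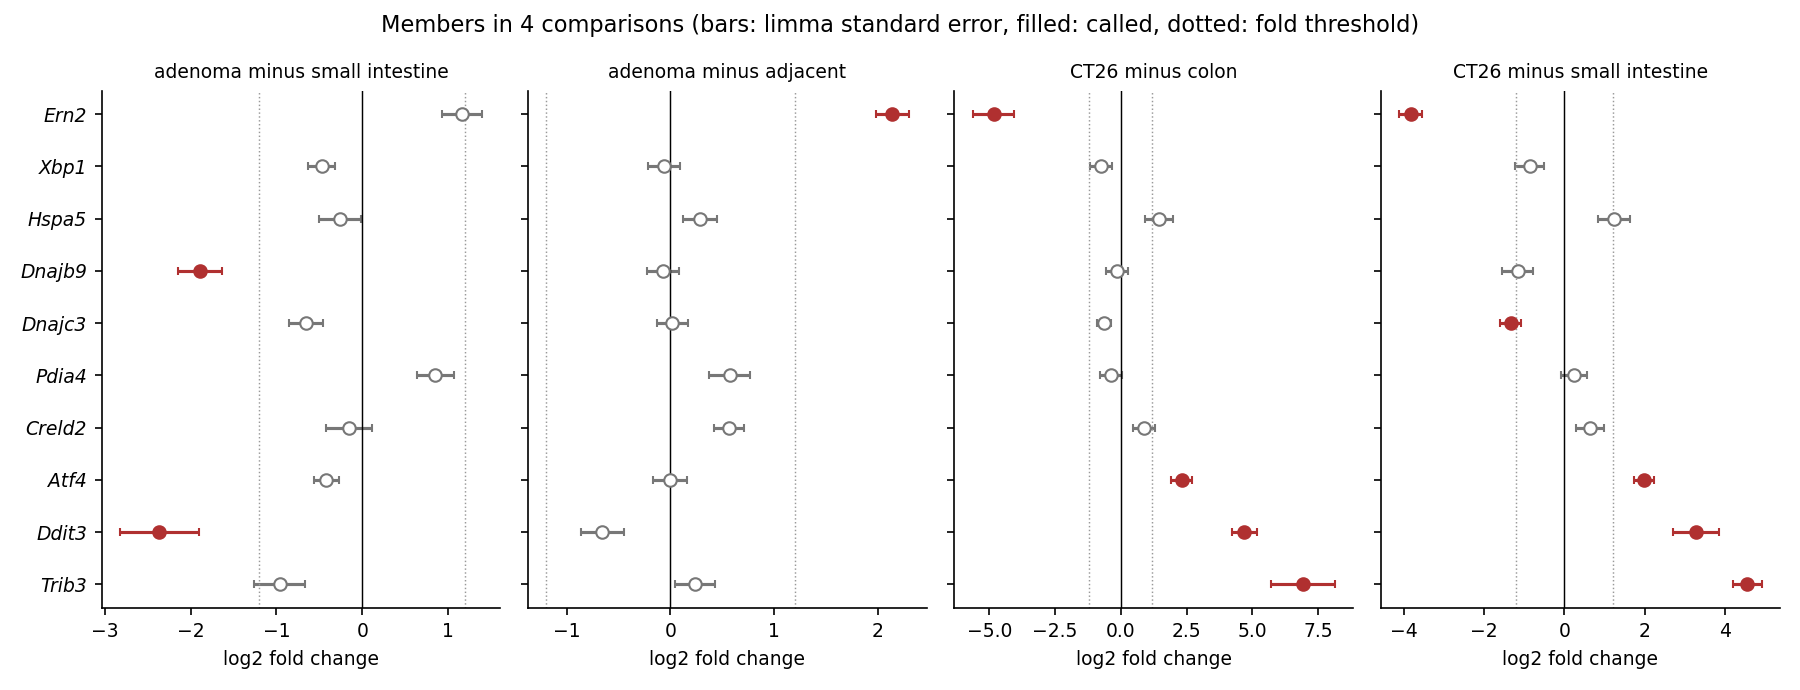
Log2 fold change (horizontal axis, its range set per comparison) of the 10 genes in 4 comparisons; bars are the limma standard error, filled points the called genes, dotted lines the fold threshold of 1.2. In CT26 the *Atf4*, *Ddit3* and *Trib3* points lie to the right in both comparisons and *Ern2* to the left, while in adenomas *Ddit3* and *Dnajb9* lie to the left against small intestine and *Ern2* to the right against adjacent tissue.

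Another 67 genes of the same pathway, in 7 lists by role, were all tested in every comparison. In CT26, 13 were overexpressed and 7 underexpressed against colon (17 and 7 without colon replicate 3, and 13 in all without CT26 replicate 3), and 15 and 8 against small intestine. These 20 and 23 of 67 genes stand beside 37.2% and 49.1% of all genes called. Their median log2 fold changes were 0.48 and 0.25, beside 0.32 and 0.14 over all genes. The targets of the eIF2alpha and *Atf4* arm were overexpressed in 4 of 6 against colon and in 5 of 6 against small intestine, with medians of 3.27 and 3.92. *Chac1*, a glutathione-degrading enzyme, read 5.86, 5.56 and 5.70 on CT26 and no more than 0.80 on any tissue array. It was overexpressed by 6.23 (SE 0.807, adjusted p 0.000538) against colon. *Ppp1r15a* (GADD34), which dephosphorylates eIF2alpha, followed at 4.62 (SE 0.633, adjusted p 0.000707), with *Atf5* at 4.28 (SE 0.317, adjusted p 3.27e-05) and *Asns*, asparagine synthetase, at 3.91 (SE 0.44, adjusted p 0.00027). *Ero1l*, an oxidase of the folding compartment, was overexpressed by 3.50 (SE 0.393, adjusted p 0.000267). Without colon replicate 3 these 5 genes were called as well, at 6.89 for *Chac1*, 4.76 for *Ppp1r15a*, 4.49 for *Atf5*, 4.23 for *Asns* and 3.62 for *Ero1l*. Against small intestine the 5 with the largest increase were *Chac1* (6.67), *Atf5* (5.61), *Ppp1r15a* (5.26), *Asns* (4.96) and *Eif2ak2* (3.04), the last encoding the kinase PKR.

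*Atf3*, another gene induced by ATF4, was lower on every CT26 array than on every tissue array. It read -3.84, -6.86 and -5.48, and only the first of these values was well above background, so the sizes below rest on 1 measured CT26 array of 3. On small intestine it was 2.09 to 3.08 and on colon 0.71 to 1.97. CT26 minus colon was -6.90 (adjusted p 0.000216; -6.68 without colon replicate 3) and CT26 minus small intestine -7.86 (adjusted p 1.96e-05). *Trib3*, *Asns*, *Chac1* and *Atf3* all hold the CARE core printed above, and the first 3 were called higher and *Atf3* lower in CT26 in both comparisons. *Nupr1*, *Herpud1*, *Kdelr1* and *Txndc5* hold it too, and their levels in CT26 are not given here. The genes named thus do not stand for all that hold the core.

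Among the pathway genes underexpressed in CT26, *Agr2* was not well above background on any CT26 array and was at least 9320-fold lower than in colon (adjusted p 5.42e-07; at least 11000-fold without colon replicate 3) and at least 4840-fold lower than in small intestine. These bounds set the mean of the brighter group against, for each CT26 array, the lowest signal among its probes well above background or the gene's own signal, whichever was higher. *Creb3l3* read -1.2, -0.54 and 5.4 on colon, the last again replicate 3. It was at least 90.4-fold lower in CT26 than in colon, at least 21.2-fold without that array, and at least 5810-fold lower than in small intestine. *Derl3* was at least 12-fold lower than in colon (13.5-fold without replicate 3) and at least 16.5-fold lower than in small intestine. *Creb3l1* and *Creb3l4* were measurable in CT26 and underexpressed against colon, with log2 fold changes of -7.20 (SE 0.667) and -4.62 (SE 0.648). Without colon replicate 3 these were -8.05 (SE 0.276) and -5.34 (SE 0.42). On the CT26 arrays 1 to 2 of 8 goblet cell markers and 3 to 4 of 8 epithelial markers were well above background, and their part in these differences was not tested. Of 9 ER chaperones, none was called between CT26 and colon by limma, beside 37.2% of all genes. An unadjusted p below 0.05 was reached in limma by 1 of them, beside 58.6% of all genes. Without colon replicate 3, *Hyou1* and *Hspa13* were called higher, beside 39.5% of all genes called in either direction. Against small intestine 1 of the 9 was called higher and 5 had an unadjusted p below 0.05 in limma, beside 26.3% and 70.3% of all genes.

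**Figure D4:**
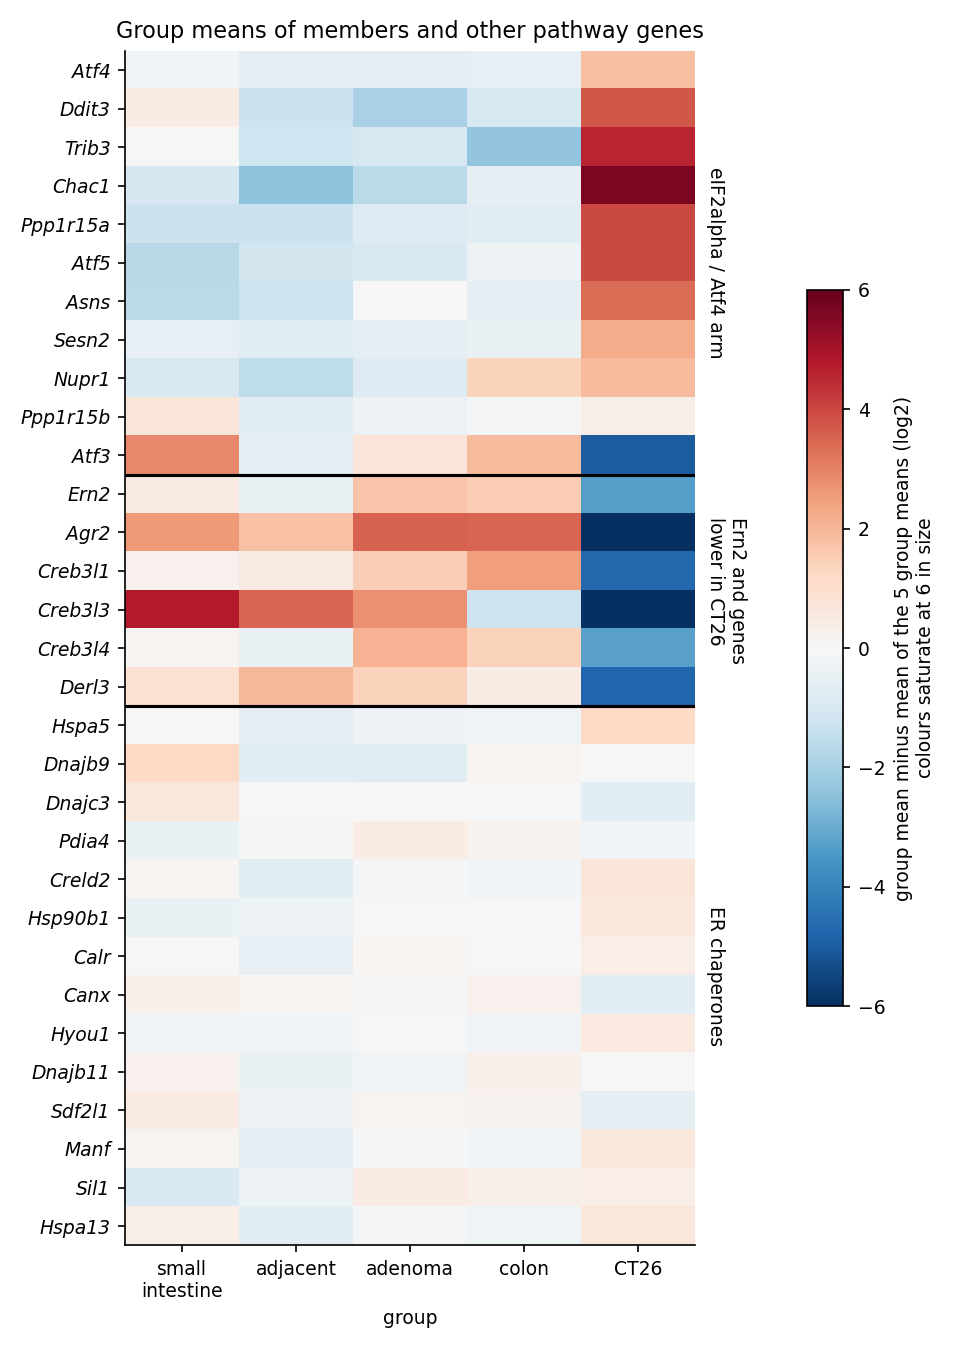
Group mean of the scaled log2 signal minus the mean of the 5 group means (color scale, log2, saturating at 6 in size) for members and other pathway genes (rows) in 5 groups (columns); the middle block holds *Ern2* with genes chosen because they were lower in CT26. Most genes of the upper block are highest in CT26 with *Atf3* lowest there. Group means of the members in the lower block span 0.85 (*Pdia4*) to 1.89 (*Dnajb9*). Those of *Atf4*, *Ddit3* and *Trib3* in the upper block span 2.41 to 6.93.

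In adenomas against small intestine, 7 of the 67 genes were overexpressed and 4 underexpressed, beside 11.3% and 11.1% of all genes, with a median of -0.25 beside -0.15 over all genes. The 5 with the largest increase were *Creb3l4* (1.95), *Creld1* (1.68, SE 0.148, adjusted p 0.000258), *Asns* (1.65), *Sil1*, a nucleotide exchange factor of BiP (1.43), and *Eif2ak4*, the amino acid sensing kinase GCN2 (1.40). Those underexpressed were *Atf3* (-2.08), *Creb3l3* (-2.02), *Edem1* (-1.89, SE 0.159, adjusted p 0.000224) and *Ero1lb* (-1.67). *Asns* was thus called higher where *Ddit3* and *Atf3* were called lower. *Edem1*, a lectin-like factor that hands glycoproteins to degradation and, like *Dnajb9*, a target of XBP1, read 0.72 to 0.86 on adenomas, 1.41 to 1.5 on adjacent tissue and 2.5 to 2.79 on small intestine. It belongs to the list of ER-associated degradation, in which 9 of 10 genes were lower on every adenoma array than on every small intestine array, with a median of -0.89, where 37.4% of all genes tested were lower in this way. Only *Edem1* of them passed both thresholds. *Herpud1* (-1.03, adjusted p 0.00289), *Sel1l* (-1.17, adjusted p 0.00221), *Derl1* (-1.01, adjusted p 0.00274) and *Derl2* (-0.94, adjusted p 0.00392) were past the adjusted p alone. The exception was *Derl3*, at 0.49. This count of 11 called genes was 3 without adenoma replicate 1 or 2, 4 without adenoma replicate 3, 6 without small intestine replicate 2, 7 without small intestine replicate 3 and 17 without small intestine replicate 1.

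In adjacent tissue against small intestine, none of the 67 genes was called by limma (26 at an unadjusted p below 0.05, beside 30.6% of all genes). Of the 10 members, 8 lay lower on both adjacent arrays than on every small intestine array, with a median of -0.70, where 31% of all genes tested did so. Of the 10 degradation genes, 9 were lower in the same way, with a median of -0.84, and all 10 had an unadjusted p below 0.05, which 30.6% of all genes had. Over all genes the median was -0.10. The adenoma comparison above uses the same small intestine arrays. Adenomas against adjacent tissue showed 4 of the 67 genes overexpressed, *Creb3l4*, *Agr2*, *Asns* (1.26, SE 0.146, adjusted p 0.00688) and *Creld1* (1.25, SE 0.148, adjusted p 0.00709), and none underexpressed, beside 2.4% and 1.78% of all genes, with a median of 0.33 beside -0.04 over all genes. This count was 0 without any 1 adenoma array, 2 without adjacent replicate 1 and 1 without adjacent replicate 2. Paneth cell markers, whose cells secrete heavily, had medians of 5.61 to 6.27 on adenomas, 6.28 to 9.31 on adjacent tissue and 7.98 to 9.44 on small intestine, and proliferation genes 3.35 to 3.43, 2.29 to 2.32 and 1.01 to 2.31. Their part in these values was not tested.

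In colon against small intestine none of the 67 genes was called by limma with the 3 colon arrays (18 at an unadjusted p below 0.05, beside 23.9% of all genes). Without colon replicate 3 the call rate over all genes was 7.23%, and 3 were overexpressed and 2 underexpressed in colon, *Creb3l1* (3.08), *Nupr1* (3.18), *Eif2ak4* (1.92), *Creb3l3* (-8.09) and *P4hb* (-1.85). None of the 10 members was called there, *Trib3* (-3.53, adjusted p 0.059), *Ern2* (2.01) and *Dnajb9* (-1.30, adjusted p 0.0353) having the largest differences. With the 3 colon arrays, 3 of 10 members were lower on every colon array than on every small intestine array, beside 17.1% of all genes tested. Without colon replicate 3, *Dnajb9*, *Dnajc3*, *Xbp1*, *Atf4*, *Ddit3* and *Trib3* were lower on both colon arrays than on all small intestine arrays. The share of all genes lying in this way without that array was not counted, so nothing is read from this list. Between adjacent tissue and small intestine, also 2 against 3 arrays, 31% of all genes tested were lower in this way. In adenomas against colon none of the 67 genes was called (7 at an unadjusted p below 0.05, beside 29.2% of all genes), and 2 were higher and 2 lower without replicate 3, beside 11.7% of all genes. The members closest to a call there were *Ddit3* (-1.15, adjusted p 0.0127) and *Dnajb9* (-0.59, adjusted p 0.0399).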

How the data were processed

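Total RNA was amplified, labeled with Cy3 and hybridized to Agilent SurePrint G3 Mouse arrays. Per the file headers, Feature Extraction 10.7.3.1 read the scans. Its processed signal, the intensity deposited by the authors for each array, has the background taken off and is not scaled between arrays. A table of log2 values normalized by the authors, by a method not given in the sources used here, served as an alternative. Its 28 other per-sample columns and the columns of fold changes and p-values that the authors computed were not used. Positions of probes are those of mm9.

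Control and outlier spots were left out, the signals were put on the log2 scale and shifted so that the 75th percentile of an array was 0. Repeated spots of a probe entered as their mean. Of 55681 probes, one was tested if 1 of the groups compared, or both, had it well above background throughout (27302 to 30151). Each of 7 pairs of the 5 groups, taken from the labels, was fitted on its own arrays by lmFit and eBayes of limma 3.58.1 (R 4.3.3), with Benjamini-Hochberg adjustment over all probes tested. Shares of called genes count each gene name once, by the same probe. The method was tested on simulated data.

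The members, the pathway and marker lists and the tests were chosen with earlier results of these data known. All members are named, and of other pathway genes the called ones, with up to 5 per direction in full, and the 5 nearest profiles for Ern2, Hspa5 and Ddit3. P-values measure the spread between arrays, which within adenomas and adjacent tissue is that between pieces of 1 mouse, and CT26 arrays may be of 1 culture. The number of arrays limits the precision. The arrays lay on 2 slides, each holding all 5 groups. Alternatives were the authors' table, normexp (offset 50), quantile normalization, other filters, all groups in 1 fit, blocks for slide or replicate number, an intensity trend, an adjusted p of 0.05 alone, any probe of a gene and the omission of each array. The counts over the pathway list, and all list values without colon replicate 3, were put through these after seeing the data.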

Additional observations from a re-analysis of the deposited data

How the results depend on the processing

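Counts of called members stayed within 1.5 times their value in 70 cases and moved further in 8, over the 7 comparisons and the settings that keep all arrays. Between adenomas and small intestine, 1 in place of 2 was called with every probe tested or with slide as a block, and 7 at an adjusted p of 0.05 with no fold limit. Between adenomas and adjacent tissue, 0 in place of 1 was called with every probe tested, with all groups in 1 fit, with the replicate block and with the block by the numbers in the titles, and 2 at an adjusted p of 0.05. The adjusted p of Ern2 there ran from 0.000854 to 0.129 over these settings (0.0172 and 0.0763 with the blocks), and its log2 fold change reached 2.30. Leaving out 1 array gave 1 to 4 called members between adenomas and small intestine, 0 to 1 between adenomas and adjacent tissue, 2 to 4 between CT26 and colon (2 without CT26 replicate 1) and 4 to 7 between CT26 and small intestine. In the other 3 comparisons no member was called in any setting by limma. No direction of a called member reversed. Replicate numbers were not taken to pair the arrays, since no comparison with 3 pairs had every correlation of same-numbered arrays' deviations over 0.1 (-0.322 to 0.238). Between adenomas and adjacent tissue, of 2 pairs, they were -0.00997 and -0.0356 by the numbers of the source labels and 0.0356 and 0.0257 by those in the titles. Between adjacent tissue and small intestine they were 0.291 and 0.141, and -0.141 and 0.207. The replicate block gave 6 called members in CT26 against small intestine in place of 5, adding Hspa5 (adjusted p 0.00966 with the block). Ern2 in adenomas against small intestine reached 1.21 and was called after quantile normalization. The called pathway genes between adenomas and small intestine were 11, and 5 with every probe tested, 7 with all groups in 1 fit and 7 with slide as a block. Those between adenomas and adjacent tissue were 4, and 2 in the authors' table, 1 with slide as a block and 0 with every probe tested, with all groups in 1 fit or with either block. The cause of these changes was not tested. Signal over background limits Ern2, Atf3, Agr2, Creb3l3 and Derl3 in CT26.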
